A study of Drosophila melanogaster with 2 samples.

Results

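The genes described here encode the nuclear subunits of the respiratory chain and ATP synthase of *Drosophila melanogaster*, and what was measured is where Zfh2, which has many zinc fingers and several homeodomains, was found on chromatin near them. Members were selected by gene symbol: protein-coding genes in Ensembl release 115 whose symbol begins with ND-, Sdh (A to D), UQCR-, COX with a digit, or ATPsyn. This gave 87 of the 13945 protein-coding genes on the main chromosome arms. Of these, 63 are subunit genes (34 of complex I, 4 of complex II, 6 of complex III, 8 of complex IV and 11 of complex V). The other 24 carry the suffix L for a duplicate, and they were kept apart as L paralogs.

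Chromatin immunoprecipitation and sequencing (ChIP-seq) with an antibody against GFP had been done on embryos of mixed sex, collected over 0 to 24 h, of the strain zfh2-GFP. This is a transgenic line with an insertion that targets *zfh2*, and it stably expresses Zfh2 with GFP at its C terminus. There were 2 libraries, biological replicates 1 and 2, in 1 group, so there is no contrast between conditions and no test between groups. The labels do not give the promoter that drives the fusion or say whether untagged Zfh2 remained, and whole animals were used, so each value is an average over all cells and stages of the collection. A list of peaks holds no expression, so the labelled stage could not be checked against markers. The deposited dm6 lists held 4344 peaks that passed the irreproducible discovery rate (IDR), 30000 relaxed calls for the pooled replicates, 30000 for replicate 1 and 29690 for replicate 2. The IDR peaks were exactly the 4344 strongest pooled calls, with a lowest signal of 64.9 against 64.8 for the strongest call left out. Relaxed calls include background by design. Read depth is unknown, and signal is the caller's own score, which ranks calls within a list and has no fixed scale.

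Oxidative phosphorylation passes electrons from NADH (complex I) and succinate (complex II) through complexes III and IV to oxygen, and the proton gradient made on the way drives ATP synthase (complex V). Complex II is also an enzyme of the citric acid cycle and is encoded in the nucleus as a whole, whereas each of the other complexes joins nuclear subunits to a few made from mitochondrial DNA. The nuclear genes are expressed in most tissues. Many duplicates of such genes in *Drosophila* are known for expression in the testis.

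The sequence under the summit is shown for the strongest peaks of each complex whose windows could be printed, and for peaks that hold a searched word. Those of *SdhC* (signal 73.7), *UQCR-Q* (73.6) and *UQCR-14* (67.3) lay near the lower limit of the IDR list. The strongest peak at a subunit gene, at *ND-MWFE* (414), is not among the windows. Each window is 101 bases long, centred on the summit and read 5′ to 3′ on the strand of the named gene, from the RefSeq Release 6 genome, which is the dm6 assembly. Capitals mark a searched word on either strand. In these windows it is the core promoter word TATAAA (read as TTTATA on the other strand), the E-box CAGCTG, the element TATCGATA known to be bound by Dref, or TAATTA, a core word of many homeodomains. The windows of *ND-ASHI* (chrX:6679328-6679428, minus strand), *ND-SGDH* (chr3L:12138701-12138801, minus), *ND-24* (chrX:17632137-17632237, plus) and *ND-13B* (chr3L:10694062-10694162, minus) belong to complex I. Those of *SdhD* (chr3R:23760564-23760664, minus) and *SdhC* (chr3R:11210123-11210223, minus) belong to complex II, and those of *UQCR-Q* (chr3L:17476145-17476245, plus) and *UQCR-14* (chrX:16286256-16286356, plus) to complex III. The windows of *COX6B* (chrX:19744335-19744435, minus) and *COX5A* (chr3R:11819480-11819580, plus) belong to complex IV, and those of the first (chr3R:14326949-14327049, plus) and second (chr3R:14327787-14327887, plus) peak of *ATPsynE* to complex V.
ND-ASHI: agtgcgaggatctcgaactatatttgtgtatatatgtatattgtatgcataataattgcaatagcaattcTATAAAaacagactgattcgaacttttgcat
ND-SGDH: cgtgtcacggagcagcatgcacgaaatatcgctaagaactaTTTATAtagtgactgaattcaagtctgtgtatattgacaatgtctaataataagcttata
ND-24: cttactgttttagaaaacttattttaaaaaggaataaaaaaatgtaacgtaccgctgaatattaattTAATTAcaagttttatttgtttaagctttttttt
ND-13B: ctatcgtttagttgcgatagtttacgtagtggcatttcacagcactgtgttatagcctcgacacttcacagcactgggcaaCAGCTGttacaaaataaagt
SdhD: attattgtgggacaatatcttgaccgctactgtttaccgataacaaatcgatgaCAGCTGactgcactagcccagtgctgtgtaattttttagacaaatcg
SdhC: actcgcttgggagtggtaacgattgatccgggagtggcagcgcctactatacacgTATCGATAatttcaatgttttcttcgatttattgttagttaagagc
UQCR-Q: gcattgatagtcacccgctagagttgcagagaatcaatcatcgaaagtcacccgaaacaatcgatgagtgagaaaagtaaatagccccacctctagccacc
UQCR-14: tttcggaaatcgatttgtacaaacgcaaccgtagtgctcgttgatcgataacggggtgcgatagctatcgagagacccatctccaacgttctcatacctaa
COX6B: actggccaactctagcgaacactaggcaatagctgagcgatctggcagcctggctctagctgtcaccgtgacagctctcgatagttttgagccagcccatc
COX5A: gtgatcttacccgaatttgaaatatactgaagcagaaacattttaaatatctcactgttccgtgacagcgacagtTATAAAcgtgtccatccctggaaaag
ATPsynE first: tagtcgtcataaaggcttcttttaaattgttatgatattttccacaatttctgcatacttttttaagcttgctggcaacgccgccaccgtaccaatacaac
ATPsynE second: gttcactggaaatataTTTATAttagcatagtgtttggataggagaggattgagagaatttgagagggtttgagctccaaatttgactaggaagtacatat
No word was held by all 12 windows. The GC content ran from 19.8% at *ND-24* to 55.4% at *COX6B*, and 4 of the 12 held none of the 9 words searched (*UQCR-Q*, *UQCR-14*, *COX6B* and the first of *ATPsynE*).

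Across all complexes, 34 of the 63 subunit genes (54.0%) had an IDR summit in the gene body or within 1 kb of it, where 33.4% of all protein-coding genes did. Subunit genes are short, with a median length of 1178 bp against 2166 bp for all protein-coding genes. Among genes under 2 kb, 29 of 51 subunit genes (56.9%) had such a peak and 22.3% of all protein-coding genes did. Counted at promoters only, with a summit within 500 bp of one of the gene's own transcription start sites (TSS), 28 of the 63 (44.4%) had a peak, against 24.6% of all. In the relaxed pooled list, 61 of 63 (96.8%) had a call in the body or within 1 kb, against 73.5%, and 58 (92.1%) had one at the promoter, against 55.8%. In single replicates, 58 (92.1%) had a call in replicate 1, against 74.3% of all genes, and 56 (88.9%) had one in replicate 2, against 73.7%. Cytosolic ribosomal protein genes had an IDR peak at 73 of 92 (79.3%) and mitochondrial ribosomal protein genes at 42 of 73 (57.5%). In the pooled list their shares were 95.7% and 94.5% in the body or within 1 kb, and 93.5% and 89% at the promoter. High pooled coverage was thus not particular to the subunit genes. These shares are descriptions of peak lists from 2 libraries, and no difference between gene groups was tested.

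**Figure D1:**
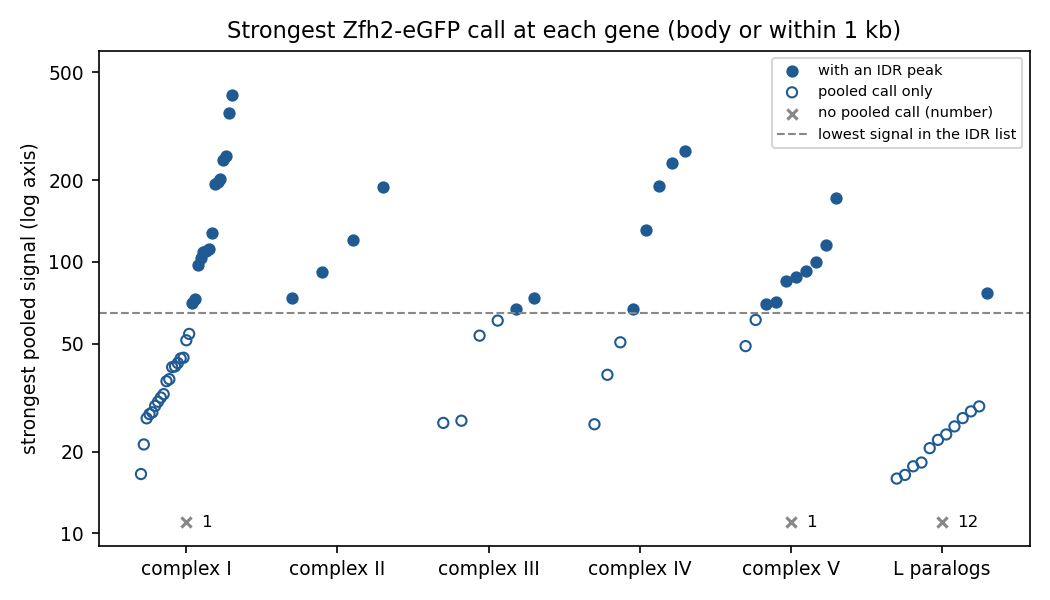
Strongest pooled call in the body or within 1 kb of each gene (signal, log axis), by respiratory complex and for the L paralogs. Filled points have an IDR peak, open points a pooled call only, and crosses give the number of genes with no pooled call; all 4 complex II genes lie above the IDR limit of 64.9 (dashed) and 1 of the 24 L paralogs does.

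Signals at the subunit genes were moderate for this list. The 41 IDR peaks at these genes had signals from 66.8 to 414 with a median of 109, where the whole IDR list had a median of 113 and reached 2951. The 1086 strongest peaks of the list held 11 of the 41, which is 26.8%, and the 2172 strongest held 19. No peak was counted for more than 1 subunit gene. Of the 34 genes, 28 had 1 peak, 5 had 2 (*ND-42*, *ND-ASHI*, *ND-B22*, *ATPsynC* and *ATPsynE*) and *ND-SGDH* had 3.

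Complex I, the NADH dehydrogenase and the largest of the 5, had an IDR peak at 15 of its 34 genes (44.1%, against 33.4% of all protein-coding genes) and at the promoter of 13 (38.2% against 24.6%). Best signals lay between 70.4 and 414, and their median was 128. The strongest lay 166 bp upstream of *ND-MWFE*, which encodes a small membrane-arm subunit, at a summit 55 bp upstream of the start of *TppII*. Its signal was 414 in the pooled data, 220.3 in replicate 1 and 198 in replicate 2, and it ranked 192 and 194 there. The peak at *ND-ASHI*, a further membrane-arm subunit, had a signal of 353, with 187 in replicate 1 and 183 in replicate 2. Its summit lay 260 bp upstream of *ND-ASHI*. It also lay inside *Fum1*, the fumarase gene of the citric acid cycle, which reads the other way, at 262 bp upstream of an internal *Fum1* start. It ranked 292 in replicate 1 and 232 in replicate 2, so both replicates placed these peaks near the top of their lists. A weaker *ND-ASHI* peak of 107 lay 7 bp upstream of an internal start of the same gene.

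At *ND-SGDH*, whose product is also a membrane-arm subunit, the strongest of 3 peaks had a signal of 247, with 98.2 in replicate 1 and 159.5 in replicate 2. It lay 167 bp upstream of *ND-SGDH* and 117 bp upstream of *RhoGAP68F*. The other peaks there had signals of 121 (62.8 and 68.9 in the replicates), at 937 bp upstream, and 79.1 (30.1 and 51.9), at 1685 bp downstream and 82 bp upstream of *CG5645*. The second of these ranked 5615 in replicate 1 and 2243 in replicate 2.

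The subunits that take electrons from NADH at the tip of the peripheral arm were represented by *ND-24* and *ND-51*. The *ND-24* peak had a signal of 238, with 109.7 in replicate 1 and 129 in replicate 2, and its summit lay 98 bp inside the gene. That of *ND-51*, the subunit known to hold the flavin, had a signal of 193, with 94.6 and 96.4 in the replicates, 97 bp upstream of the start. *ND-75*, the large iron-sulfur subunit of the same module, had no IDR peak, and its strongest pooled call had a signal of 36.3. Among the core subunits that carry electrons on to ubiquinone, *ND-20* had a peak of 109 at 110 bp upstream, with 61.2 and 49.7 in the replicates. *ND-23*, *ND-30* and *ND-49* had pooled calls only, with best signals of 42.4, 44.1 and 26.5. The peaks thus fell on some members of each module and not on others.

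Further complex I genes with peaks were mostly supernumerary subunits, which surround the catalytic core. *ND-42* had peaks of 197 and 157, at 301 and 66 bp upstream. The stronger lay 72 bp inside *Cchl*, which encodes cytochrome c heme lyase. Its replicate signals were 117 and 92.7, and those of the weaker peak were 72.0 and 92.7, the same call in replicate 2. *ND-B22* had a peak of 202 past its 3′ end, 45 bp upstream of *CG31855*, with 88.8 and 108 in the replicates, and 1 of 98.3 at 11 bp past an internal start. Single peaks lay at *ND-B17* (signal 128, 92 bp upstream), *ND-MNLL* (112, 34 bp upstream), *ND-13B* (109, 4 bp upstream), *ND-B18* (103, 62 bp upstream of an internal start) and *ND-B17.2* (73.2, 6 bp upstream). The peak of *ND-39* (97.6, with 45.2 and 54.9 in the replicates) lay in its body, 121 bp upstream of a start of *ZnT77C*, and that of *ND-B14.5B* (70.4, with 35.2 and 35.7) past its 3′ end, 84 bp upstream of *toc*. At the promoters of those 2 genes the pooled calls had signals of 39.2 and 41.9.

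Complex II, succinate dehydrogenase, had an IDR peak at all 4 of its genes, against 33.4% of all protein-coding genes. It had 1 at the promoter of 2 of them (50% against 24.6%). The peak of *SdhD*, a membrane anchor subunit, had a signal of 120.2, with 63.9 in replicate 1 and 55.2 in replicate 2, and lay 14 bp upstream of the start. It was the only 1 of the 4 whose nearest TSS was the gene's own. That of *SdhC*, the other membrane anchor, had a signal of 73.7, with 43.1 and 34.2, and lay 324 bp upstream of *SdhC* and 74 bp upstream of *Tctp*, which reads the other way. The peak counted for *SdhB*, the iron-sulfur subunit, had a signal of 188, with 95.2 and 92.3, and lay 663 bp past the end of the gene and 69 bp upstream of *CG15237*. The peak counted for *SdhA*, the flavoprotein subunit, had a signal of 91.4, with 51.2 and 37.1, and lay 810 bp upstream of *SdhA* and 9 bp upstream of *cer*. At their own promoters *SdhB* and *SdhA* had pooled calls of 53.7 and 27.5. The count of 4 of 4 therefore rested on the margin of 1 kb, and it was 0 with summits in the gene body only.

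Complex III, which passes electrons from ubiquinol to cytochrome c, had an IDR peak at 2 of its 6 genes (33.3%), close to the 33.4% of all protein-coding genes. *UQCR-Q* had a peak of 73.6, with 39.1 in replicate 1 and 31.8 in replicate 2, 71 bp past its 3′ end and 27 bp upstream of *CG34250*. *UQCR-14* had a peak of 67.3, with 32.0 and 42.1, 18 bp inside its start. Both lay near the lower limit of the list. The core protein genes had none: the strongest pooled calls were 60.8 for *UQCR-C2*, 53 bp upstream of the start, and 26.0 for *UQCR-C1*. *UQCR-6.4* reached 53.5 at 54 bp upstream and *UQCR-11* reached 25.5.

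Complex IV, cytochrome c oxidase, had an IDR peak at 5 of 8 genes (62.5%, against 33.4% of all), each within 500 bp of a start of the gene. The highest was at *COX6B*, which encodes a subunit on the intermembrane side. It had a signal of 256, with 165 in replicate 1 and 85.5 in replicate 2, and lay 50 bp upstream of *COX6B* and 46 bp upstream of *CG33932*. *COX5A* had a peak of 232, with 131 and 100.5, at 69 bp upstream of an internal start, and *COX8* 1 of 191, with 83.1 and 101, at 57 bp upstream. The *COX7B* peak of 131, at 90 bp upstream, ranked 2709 in replicate 1 and 1069 in replicate 2, with signals of 51.9 and 85.8. That of *COX7C*, with 66.8 the weakest of all 41, had 31.0 and 34.4 in the replicates and lay 310 bp inside the gene and 44 bp upstream of *oys*. *COX4*, *COX5B* and *COX7A* had none, with best pooled signals of 38.4, 50.5 and 25.2.

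Complex V, ATP synthase, had an IDR peak at 8 of 11 genes (72.7%, against 33.4% of all) and at the promoter of 7 (63.6% against 24.6%). With the strongest calls of replicate 2 alone in place of the IDR list, that is without replicate 1, the count was 5, and without replicate 2 it was 7. The genes that replicate 2 placed beyond rank 4344 were *ATPsynF* (rank 5095), *ATPsyngamma* (5123) and *ATPsynbeta* (4504). In the catalytic head and central stalk, *ATPsynbeta* had a peak of 70.2, with 42.9 in replicate 1 and 29.4 in replicate 2. It lay 363 bp inside the gene, 17 bp upstream of an internal start. *ATPsyngamma*, the rotating shaft, had 1 of 71.4, with 44.5 and 26.4, at 275 bp inside the gene and 19 bp upstream of an internal start. *ATPsyndelta*, at the foot of the shaft, had no call in any of the 4 lists. For the membrane ring, *ATPsynC* had a promoter peak of 75.3, with 45.0 and 26.9, at 64 bp upstream, and a peak of 92.4, with 49.1 and 42.1, beyond its 3′ end, 87 bp upstream of *CG15561*.

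The peripheral stalk genes of complex V differed among themselves. *ATPsynB* had a peak of 99.7, with 52.4 and 47.0 in the replicates, 9 bp inside its start. *ATPsynCF6* had 1 of 87.8, with 47.5 and 47.2, which lay 134 bp upstream of its start and 80 bp upstream of *Sec13*. For *ATPsynD* the only IDR summit, at 84.8 with 33.1 and 52.1 in the replicates, lay 139 bp past the end of the gene, and its promoter had a pooled call of 33.2. *ATPsynO* had no IDR peak and the strongest pooled call among the genes without 1, at 61.1 and 23 bp upstream of the start. Among the small membrane subunits, *ATPsynE* had the highest signal of the complex, at 171, with 82.2 in replicate 1 and 88.3 in replicate 2, 52 bp inside its start. It had a further peak of 119, with 55.8 and 65.4, past its 3′ end, 214 bp upstream of *spn-B*. *ATPsynF* had a peak of 115, with 89.3 and 26.6 in the replicates, 64 bp upstream of its start and 62 bp upstream of *CG3548*. *ATPsynG* had a pooled call of 48.9 and no IDR peak.

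Most of the promoter summits lay close to the start. Of the 41 peaks, 30 lay within 500 bp of a start of the subunit gene and 11 lay beyond. Of the 30, 24 (80%) were upstream, 19 of them within 150 bp, and the median position was -59.5 bp. For 5 of the 24 the summit lay inside the gene and upstream of an internal start (*ND-ASHI*, *ND-B18*, *COX5A*, *ATPsynbeta* and *ATPsyngamma*). Measured from each gene's canonical start in place of its nearest start, 20 of 29 promoter summits were upstream. Over all 3940 pairs of a protein-coding gene and a promoter summit, 87.7% were upstream and the median was -106 bp. For 19 of the 41 peaks the nearest TSS was that of another gene, and 16 of those lay within 150 bp of it. Counting genes, 21 had a peak nearest to their own TSS and 13 had peaks nearest to a neighbour's only. Of the 13, *COX7C* was also the nearest gene to an IDR summit beyond the margin, 1917 bp upstream, with a signal of 143.

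**Figure D2:**
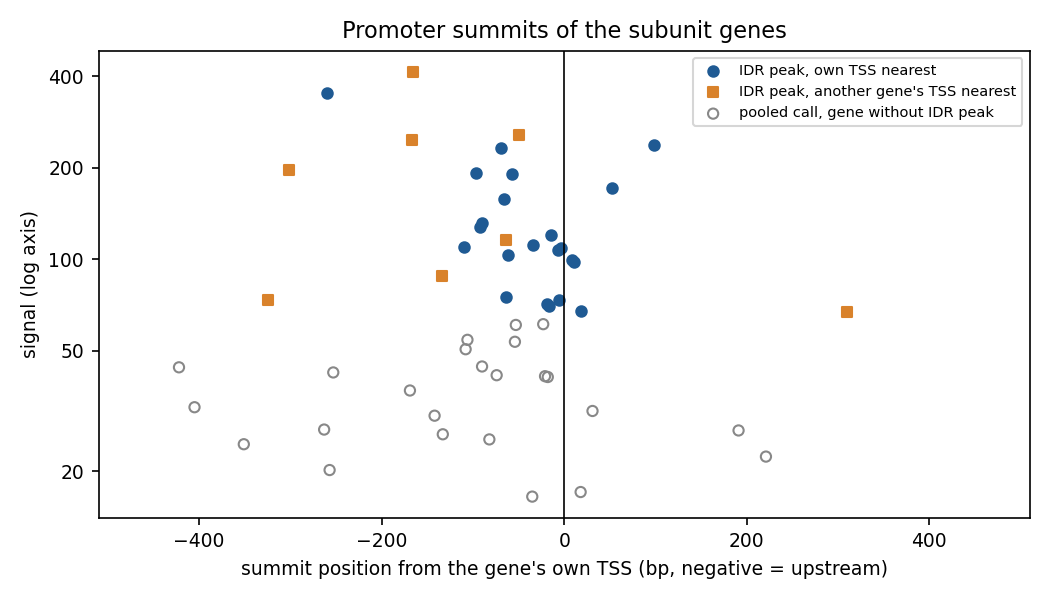
Position of promoter summits from the subunit gene's own TSS (bp, negative is upstream) against signal (log axis). IDR peaks are filled, with circles where the gene's own TSS is the nearest and squares where another gene's is; open circles are the strongest pooled promoter calls of genes without an IDR peak, which have a median position of -86 bp.

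Subunit genes often stand head to head with a neighbour, meaning that a protein-coding start on the opposite strand lies within 500 bp upstream. This held for 36 of 63 (57.1%) and for 27.4% of all protein-coding genes. With such a partner, 21 of 36 subunit genes (58.3%) had an IDR peak, close to the 57.6% of all genes so placed. Without a partner, 13 of 27 (48.1%) had 1, and 24.3% of all genes did. Counted at promoters only, the shares were 19 of 36 (52.8%, against 50.9% of all) with a partner. Without a partner they were 9 of 27 (33.3%, against 14.7% of all). Partners of subunit genes included *Fum1* for *ND-ASHI*, whose closest alternative starts are 164 bp apart, and *Cchl* for *ND-42*, at 229 bp. They also included *kdn*, the citrate synthase gene, for *ND-B16.6*, at 228 bp, and *mRpL55* for *ATPsynD*, at 95 bp. At a start shared in this way a summit cannot be assigned to either gene.

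By chromosome arm, IDR peaks lay at 5 of 12 subunit genes on 2L, 5 of 11 on 2R, 7 of 13 on 3L, 9 of 13 on 3R, 1 of 2 on 4 and 7 of 12 on X. Among all protein-coding genes the share ran from 30% on 2L to 34.8% on 3R. The 2 members on chromosome 4 were *ATPsynbeta*, with a peak, and *ND-49*, without. In the proximal part of 3L, *ND-AGGG* and *UQCR-11* lay 1638102 and 1782557 bp from the nearest IDR summit, and their best pooled signals were 16.5 and 25.5.

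Replicates were compared peak by peak. All 41 IDR peaks lay in a call of both replicates, as selection by IDR favours. Signals ran from 30.1 to 220 in replicate 1 (median 56.8) and from 24.0 to 198 in replicate 2 (median 52.5). Ranks ran from 192 to 5615 and from 194 to 5726. As a description, Spearman's rho between the replicate signals was 0.70 and Pearson's r of their log2 values was 0.75 over the 41 peaks, which are not independent replicates and share the 2 libraries. Ranks were higher in replicate 1 for 18 peaks and in replicate 2 for 23. For 34 peaks they were within 2-fold of each other, and for 7 they were not. Those ranked higher in replicate 1 were at *ATPsynF* (rank 1241 against 5095), *COX6B* (386 against 1079) and *ND-B18* (1760 against 4350). Those ranked higher in replicate 2 were the first and the weakest peak of *ND-SGDH* (1055 against 308 for the first) and the peaks of *COX7B* (2709 against 1069) and *ATPsynD* (4967 against 2231).

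**Figure D3:**
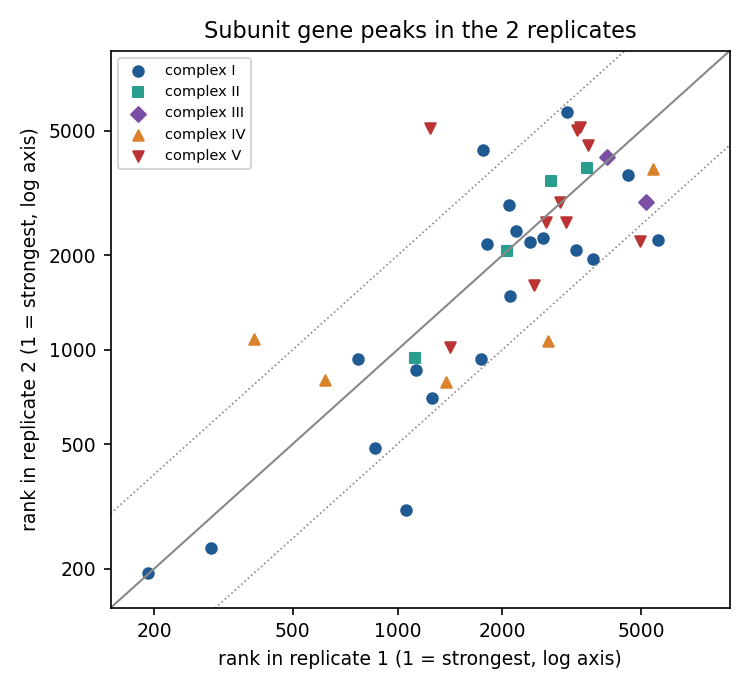
Rank of each of the 41 subunit gene peaks in replicate 1 and replicate 2 (log axes, rank 1 is the strongest call), by complex. The solid line marks equal ranks and the dotted lines a 2-fold difference, and 34 of the 41 peaks lie between the dotted lines.

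The 29 subunit genes without an IDR peak were seldom without any call. A pooled call lay at 27 of them (93.1%), where 60.2% of the 9291 protein-coding genes without an IDR peak had 1, with best signals from 16.5 to 61.1 (median 37.0) and best ranks from 4658 to 27517 (median 8312). Calls in both replicates lay at 19 (65.5% against 47.8%). At the promoter, 24 of the 29 (82.8%) had a pooled call, against 38.2% of that set. Of those 24 summits, 20 were upstream of the start, with a median of -86 bp over the 24. A promoter call in both replicates was present at 13 of the 29 (44.8%) and at 24.7% of that set. After *ATPsynO* and *UQCR-C2*, the strongest were *ND-B8* (54.3, rank 5314), *UQCR-6.4* (53.5, rank 5421) and *COX5B* (50.5, rank 5773). Only *ND-B14* and *ATPsyndelta* had no call in any list. Since relaxed lists hold background together with sites, these calls are not counted as bound promoters.

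The margin of 1 kb decided many of these counts. Of the 34 genes with a peak, 12 had a summit inside the body and 22 had summits in the flanks only. The farthest counted summits lay 944 bp past the end of *ND-B22*, 937 bp before *ND-SGDH* and 810 bp before *SdhA*. Just outside the margin, *UQCR-C2* and *ND-MLRQ* each had their nearest IDR summit 1174 bp from the body. The next were *ATPsyndelta* at 1760 bp and *ND-B16.6* at 1835 bp.

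**Figure D4:**
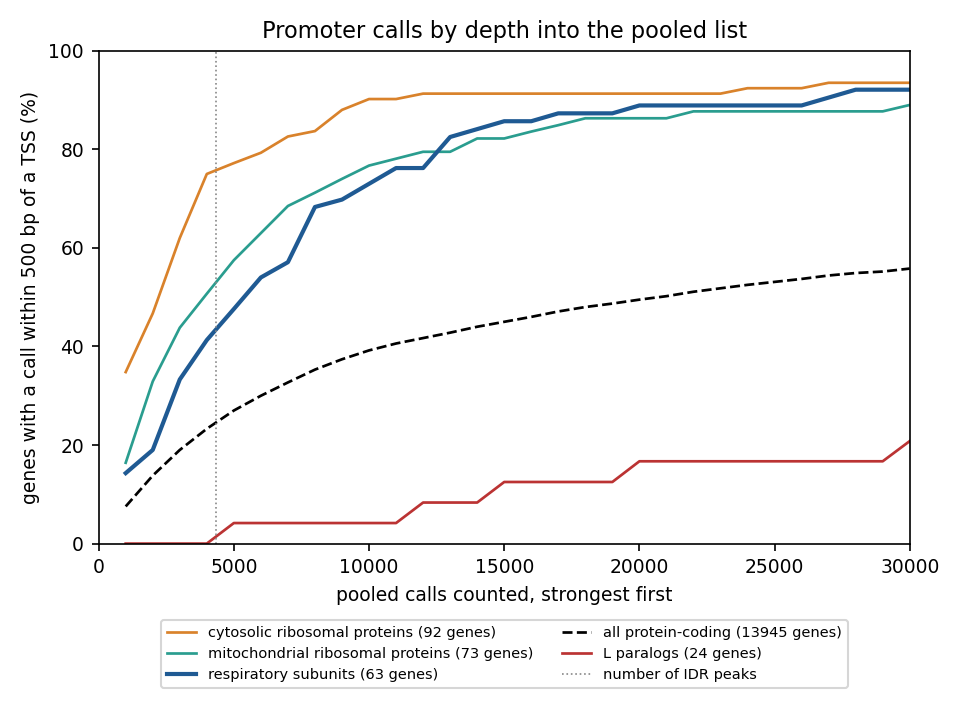
Share of genes with a promoter call (within 500 bp of a TSS, in percent) as more of the pooled list is counted from its strongest call down. Subunit genes went from 47.6% at 5000 calls to 92.1% at 30000, all protein-coding genes from 27% to 55.8%, and L paralogs from 4.17% to 20.8%; the dotted line marks the 4344 calls that are the IDR list.

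The L paralogs held few calls. Only 1 of 24 (4.17%) had an IDR peak, against 33.4% of all protein-coding genes and 22.3% of those under 2 kb. None had an IDR summit within 500 bp of a start, against 24.6% of all. A pooled call lay at 12 (50%), against 73.5% of all and 58.9% of genes under 2 kb, so this share was nearer to that of short genes. In replicate 1, 12 (50%) had a call, against 74.3% of all and 60.3% of short genes. In replicate 2, 11 (45.8%) had 1, against 73.7% and 58.9%. Of the 24, 7 had no call in any list, and the share of all or of short genes without any call was not counted. The exception was *COX7AL2*, whose 2 peaks lay 1203 and 556 bp inside the gene with signals of 76.5 and 75.1. The first had signals of 63.1 in replicate 1 and 16.5 in replicate 2, and the second 43.2 and 32.8. Among the other 23, the highest pooled signal was 29.3, at *COX7CL*, which stands beside *COX7C*. For 20 paralogs the symbol names a parent among the subunits. Of these, 19 ranked below their parent in the pooled list, counting a gene with no call as lowest, and *COX7AL2* ranked above *COX7A* (3560 against 13995). Examples were *ND-51L1*, whose best pooled signal was 23.1 against 193 for *ND-51*, and *SdhBL*, with 20.6 against 188 for *SdhB*. The *SdhB* call of 188 lay 663 bp past the end of the gene and 69 bp upstream of *CG15237*. At its own promoter *SdhB* had a pooled call of 53.7. L paralogs were shorter still, with a median of 744 bp, and 3 of 24 had a head-to-head partner. The part of length and of neighbouring starts in these counts was not tested.

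Sequence words were sought on both strands within 100 bp of each gene's canonical start. TATCGATA was present at 5 of 63 subunit promoters (7.94%) and 7.51% of all protein-coding promoters. GGTCACAC, part of the core promoter word bound by M1BP, was present at 13 (20.6%) against 6.52%. CAGCTG was present at 17 (27.0%) against 13.8%, CACGTG at 0 against 2.92%, TATAAA at 19 (30.2%) against 28.9% and TAATTA at 6 (9.52%) against 9.62%. Median GC content was 36.3% for subunit promoters and 41.3% for all, and base composition can enter each of these shares. From 250 bp before to 50 bp after the start, counts that moved by over 1.5 times were TATCGATA at 8 (12.7%, against 8.95% of all), CACGTG at 2 (3.17% against 4.29%), TATAAA at 34 (54% against 45.3%) and TAATTA at 15 (23.8% against 20.1%). A match is a description of the sequence and not a measured site.

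The nuclear respiratory gene element is a word with a palindromic consensus described in fly genes of oxidative phosphorylation, and it was sought as TTACATAA, TTACGTAA and TTATATAA. At least 1 form was present at 11 of 63 subunit promoters (17.5%), against 2.34% of all protein-coding promoters. In the window from 250 bp before to 50 bp after the start, the count was 5 (7.94%) against 5.13%, so the contrast depended on the window. In the first window TTACATAA accounted for 6 of them, TTACGTAA for 4 and TTATATAA for 1, at *ND-SGDH*, where it overlaps a TATAAA match. Of the 11, 9 began downstream of the start, at a median of 59 bp over all 11. The word was present at 9 of 73 mitochondrial ribosomal protein promoters (12.3%) and at none of the 92 cytosolic ribosomal protein or 24 L paralog promoters. Examples of 40 bases around the word, in capitals, on the strand of the gene, come from *ND-18* (chrX:19492463-19492502), *ND-B18* (chrX:15063964-15064003), *ND-20* (chrX:15986726-15986765), *ND-30* (chr3L:3159507-3159546), *COX7A* (chr3R:8340804-8340843) and *ATPsyngamma* (chr3R:29749050-29749089).
ND-18: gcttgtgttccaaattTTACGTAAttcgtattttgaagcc
ND-B18: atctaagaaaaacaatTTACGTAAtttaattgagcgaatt
ND-20: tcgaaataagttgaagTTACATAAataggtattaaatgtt
ND-30: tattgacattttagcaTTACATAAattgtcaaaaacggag
COX7A: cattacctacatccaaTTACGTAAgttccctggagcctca
ATPsyngamma: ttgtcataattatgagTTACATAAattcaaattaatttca
Of these 6 chosen examples, *ND-B18*, *ND-20* and *ATPsyngamma* had a promoter IDR peak and *ND-18*, *ND-30* and *COX7A* had none. Among all subunit promoters with TTACATAA, 3 of 6 had 1, against 28.6% of all protein-coding promoters with it. The counts were 1 of 4 for TTACGTAA (against 18.4%) and 1 of 1 for TTATATAA (against 18.5%).

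**Figure D5:**
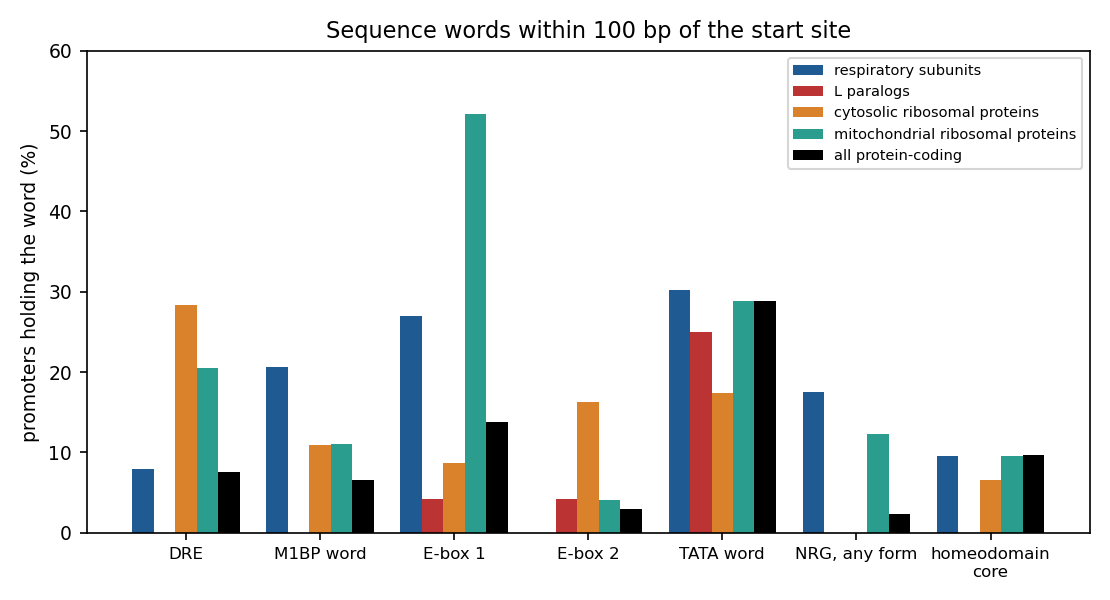
Share of promoters (percent) that hold each word within 100 bp of the start, on either strand, for the 63 subunit genes, the 24 L paralogs, cytosolic and mitochondrial ribosomal protein genes and all protein-coding genes. E-box 1 is CAGCTG and E-box 2 is CACGTG; for the nuclear respiratory gene element (NRG) the bars stand at 17.5% for subunit genes and 2.34% for all, and from 250 bp before to 50 bp after the start the shares are 7.94% and 5.13%.

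Promoter words occurred at subunit genes with and without a peak. An IDR promoter peak was present at 4 of the 13 subunit promoters with GGTCACAC (30.8%) and 24 of the 50 without it (48.0%). For CAGCTG the counts were 7 of 17 (41.2%) and 21 of 46 (45.7%), and for TATCGATA 2 of 5 and 26 of 58. Over all protein-coding promoters the share with an IDR promoter peak was 35.3% with GGTCACAC and 23.8% without, 34.5% and 23.0% for CAGCTG, and 42.7% and 23.1% for TATCGATA. Within 100 bp of the summit, CAGCTG lay in 9 of the 30 subunit promoter peaks (30%) and in 14.5% of the 2724 IDR peaks at protein-coding promoters. GGTCACAC lay in 1 of 30 against 5.91%, TATCGATA in 4 (13.3%) against 10.7% and TAATTA in 3 (10%) against 14.5%. With counts this small, none of these shares was called different.

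Genes of the same pathway with other symbols gave a mixed picture. Of 9 further subunits and electron carriers, 6 had an IDR peak in the body or within 1 kb. The strongest was at *blw*, the alpha subunit of ATP synthase, with a signal of 523, 338 in replicate 1 and 207 in replicate 2, at 762 bp past the 3′ end of the gene. The complex III and IV subunits *ox*, *levy* and *cype* had peaks of 183, 215 and 86.6, and the cytochrome c genes *Cyt-c-d* and *Cyt-c-p* had 178 and 96.9. Several of these summits were nearest to another gene's start. For *blw* it was *CycB* (3361 bp), for *ox* *Taz* (134 bp) and for *levy* *wmd* (54 bp). For *cype* it was *Ncoa6* (99 bp) and for *Cyt-c-d* *CG31808* (200 bp). *RFeSP*, *Cyt-c1* and *sun* had none. Of 10 assembly factor genes, 3 had a peak: *CIA30*, a complex I assembly factor, with 955 (527 and 429 in the replicates), *Cox17*, a copper chaperone, with 249, and *Coa8* with 167. The *CIA30* summit lay 120 bp upstream of its start and 100 bp upstream of that of *CG7601*. The *Coa8* summit of 167 lay 512 bp upstream of its start and 4 bp past that of *CG14818*.

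Of 12 genes for mitochondrial DNA maintenance, its expression and nuclear regulators, 5 had a peak. These were *mtSSB* (124), *PolG2* (124), *mtTFB2* (69.4), *ewg* (69.4), which is the fly relative of mammalian nuclear respiratory factor, and *PolrMT* (65.5). *TFAM*, *PolG1* and *srl* had none. Of 13 citric acid cycle and pyruvate dehydrogenase genes, 10 had a peak. They were led by *mAcon1*, mitochondrial aconitase, with 358 (202 and 155 in the replicates), and by *Fum1*, counted with the *ND-ASHI* peak. The subunits of isocitrate dehydrogenase *Idh3b*, *Idh3g* and *Idh3a* had 207, 191 and 117, and *Pdhb* had 202. The *Idh3a* summit lay 195 bp upstream of its start and 22 bp upstream of that of *CoRest*. *Mdh2*, *Pdha* and *ScsbetaG* had none. The background for each of these counts is the 33.4% of all protein-coding genes.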

How the data were processed

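Zfh2-GFP ChIP-seq of 2 embryo libraries was analysed from 4 deposited dm6 peak lists: IDR, pooled, replicate 1 and replicate 2. Per the deposited file descriptions, relaxed calls were made against a control alignment as input for IDR; the control's values and the dm3 lists were not used here. For alignment and peak calling, tools were not given in the sources used here. Chromatin was sonicated, with a size range of 200 to 800 bp per the labels. The deposited signal value is a score without a fixed scale, used to rank calls within a list. The deposited lists also hold −log10 of a q-value, which was not used to rank calls. Depth is unknown.

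Summits were set on Ensembl release 115 genes, without transposable elements, on the main arms. A gene was counted with a summit in its body or within 1 kb (1000 bp), and at its promoter within 500 bp of an own TSS. A replicate's value at a peak is that of its strongest call holding the IDR summit. Words were counted within 100 bp of the canonical start, and from 250 bp before to 50 bp after it as an alternative. The steps were checked on simulated summits and words (Python 3.11.15, pandas 2.3.3, numpy 2.4.6). Windows are those of the strongest peaks of a complex, or holding a word, that could be printed. The text names every subunit gene with an IDR peak, the strongest without 1 in each complex, those with no call, and L paralogs with a peak; other genes named were chosen with their values known. Members, lists and words were chosen with earlier results of these data known. Of the listed pathway genes, *Sdhaf4*, *mtRNApol* and *Nc73EF* matched no symbol.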

Additional observations from a re-analysis of the deposited data

How the results depend on the processing

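Counts of genes with a peak moved most with the margin and with the length of the list. Among the 2172 strongest IDR peaks, 16 subunit genes had a peak (25.4%, against 20.6% of all protein-coding genes). There were 8 in complex I, 2 in II, 0 in III, 4 in IV and 2 in V, with 0 L paralogs. In the settings that follow, a complex not named kept within 1.5 times its reported count. With summits in the gene body only there were 12 (19.0% against 11.7%), 5 in complex I, 0 in II, 1 in III, 2 in IV and 4 in V. A margin of 5 kb gave 48 (76.2% against 52.1%), with 23 in complex I, 5 in III and 6 L paralogs. Within 500 bp of an own TSS, complex II had 2, complex III 1 and the L paralogs 0. With each peak given to its nearest TSS at any distance there were 22, which adds *COX7C* through a summit beyond 1 kb (34.9% against 21.9%), 1 in complex II, 1 in III and 5 in V. The strongest 4344 calls of replicate 2, without replicate 1, gave 30 (47.6% against 33.4%), of which 29 were among the 34. Those of replicate 1, without replicate 2, gave 32 (50.8% against 32.9%), of which 30 were among the 34. Complex V ranged from 5 to 7. The strongest pooled calls are the IDR list itself and so gave the same 34. From 250 bp before to 50 bp after the start, the nuclear respiratory gene element was at 5 subunit promoters (7.94%) against 5.13% of all. In all, 44 of the recomputed values kept within 1.5 times the reported count and 30 moved further. The 44 include the counts from the strongest pooled calls, which had to match. A count has no direction, so none could be reversed. No paired analysis was possible because the 2 libraries form 1 group. Unknown depth limits every statement that a gene had no peak.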
